A study of Mus musculus with 18 samples.

Results

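The dependence of a ligand response on the aryl hydrocarbon receptor (AhR) was read from mouse hepatocytes as a difference of differences. For each probe, the log2 change with YH439 over DMSO in AhR-reconstituted cells was taken, and the log2 change with YH439 over DMSO in AhR-null cells was subtracted from it. A positive value therefore means that signal responded more to YH439 where AhR was present. Probes were included if their detection p-value was under 0.05 on at least 3 of the 18 arrays of the study, which 22203 of 45281 probes met. YH439 is a compound known to activate AhR, and the series title names xenobiotics and loss of adhesion as inputs to AhR signalling. The 6 arrays of suspended cells were not among the groups of this difference. They were part of the normalization, the probe filter and the shared estimate of the spread. Differences read from them against the same DMSO arrays are given at the end of these Results.

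The comparison used 12 of the 18 arrays, in 4 groups of 3. Both lines, derived from AhR-/- Hepa hepatocytes of strain C57BL/6N that had been transformed with the SV40 tsA209 mutant virus, were treated for 8 h while confluent. The reconstituted line carried the tetracycline repressor (TetR) and mouse AhR with a HisMyc tag (pLV501_HisMyc_mAhR), and the AhR-null line carried TetR alone (pLenti6/TR). Each line received 10 µM YH439 or 0.1% DMSO, and all cells were kept at 34 °C in 10% fetal calf serum with 100 nM dexamethasone, a glucocorticoid. No DMSO content is recorded for the cells with YH439. The labels do not say whether a line is 1 clone, so the presence of AhR and any other difference between the 2 lines cannot be told apart. The replicates are called biological without mention of separate cultures, so the spread behind each p-value is that of these samples and may be technical.

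AhR rests in the cytoplasm in a complex with heat shock protein chaperones. Ligand binding sends it to the nucleus, where it pairs with ARNT and binds DNA elements around the core GCGTG. In liver it is known for switching on drug-metabolising enzymes, among them the cytochrome P450 enzymes of the CYP1 family, and its own inhibitors AHRR and TIPARP.

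The promoter sequences of some genes named below are shown first, because the AhR core motif can be read in them directly. Tiparp, Cyp1b1 and Nqo1 are members of the AhR gene battery, the set of genes AhR is known to induce, whose response differed between the lines when replicates were paired. The response of Gsdme differed with and without pairing. The 250 bases before each start are given 5′ to 3′ on the gene's own strand, from RefSeq (GRCm38.p6), with GCGTG or its reverse complement CACGC in capitals. Tiparp lies at chr3:65528197-65528446 on the plus strand. The others are on the minus strand, at chr17:79715062-79715311 for Cyp1b1, chr8:107403206-107403455 for Nqo1 and chr6:50261770-50262019 for Gsdme.
Tiparp: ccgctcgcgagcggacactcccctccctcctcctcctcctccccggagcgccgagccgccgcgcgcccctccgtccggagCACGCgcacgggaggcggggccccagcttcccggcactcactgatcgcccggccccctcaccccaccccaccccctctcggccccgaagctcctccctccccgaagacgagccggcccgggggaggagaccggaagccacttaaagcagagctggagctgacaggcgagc
Cyp1b1: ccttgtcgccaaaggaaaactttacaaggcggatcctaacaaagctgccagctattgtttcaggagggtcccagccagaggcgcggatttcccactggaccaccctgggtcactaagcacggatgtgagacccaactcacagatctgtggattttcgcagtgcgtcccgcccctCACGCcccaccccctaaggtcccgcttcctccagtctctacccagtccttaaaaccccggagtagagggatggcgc
Nqo1: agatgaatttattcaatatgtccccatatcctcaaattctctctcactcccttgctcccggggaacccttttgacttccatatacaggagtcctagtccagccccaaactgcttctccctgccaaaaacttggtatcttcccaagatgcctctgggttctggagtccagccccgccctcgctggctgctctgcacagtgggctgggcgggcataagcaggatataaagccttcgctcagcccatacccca
Gsdme: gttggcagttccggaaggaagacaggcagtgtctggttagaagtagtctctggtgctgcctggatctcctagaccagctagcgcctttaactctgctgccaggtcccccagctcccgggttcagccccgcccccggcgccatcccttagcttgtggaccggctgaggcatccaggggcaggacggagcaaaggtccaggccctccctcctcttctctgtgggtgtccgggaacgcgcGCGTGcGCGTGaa
The core occurred 2 times in the Gsdme window, immediately before the start. It occurred 1 time in each of the Tiparp and Cyp1b1 windows, on the opposite strand, and 0 times in that of Nqo1. Among the 17 named genes called with pairing, 11 had an entry, and GCGTG on either strand was in the window of 4 of these (36.4%). Among all tested genes with an entry it was in 4478 of 9060 (49.4%), and among all promoters of the table in 9250 of 32851 (28.2%). The longer element TNGCGTG, which contains GCGTG, was in 0 of the 11 windows and in 701 of 9060 (7.74%). The windows printed are a choice among the 11. Those of Adh7, Chil1, Cldnd1, Ptx3, Utrn and Vcan, not printed, held the core 0 times. Aldh3a1 and Scn3a, which were called with and without pairing, had no entry. These matches describe the letters of the window.

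Few YH439 responses differed between the lines beyond the spread of the arrays. With 1 mean per group and limma's moderated test, 4 of 22203 probes (0.018%) passed an adjusted p of 0.05, and all 4 responded more in reconstituted cells. They were Aldh3a1, Scn3a, Gsdme and the probe ILMN_2653725, which the annotation pairs with no gene. Arrays of 1 line with the same number shared deviations from their group means, so each line and replicate number was also fitted as a block. With this replicate block 19 probes (0.0856%) were called, 18 of them larger (0.0811%) and 1 smaller (0.0045%) in reconstituted cells, and they included the 4 above. The genes called only with the block were Tiparp, Adh7, Cyp1b1, Nqo1, Chil1, Gpc1, Cldnd1, Ptx3 (both of its probes), Vcan, Spint1, Prl2c2, Foxq1, Spon2 and, in the other direction, Utrn. With the block and without the 6 dimmest arrays, or with the 12 arrays of these groups alone, 1 probe remained called, that of Aldh3a1.

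The response within each line gives the scale. In reconstituted cells 19 probes differed between YH439 and DMSO (0.0856%), 18 of them higher with YH439 (0.0811%). With the block there were 112 (0.504%), 90 of them higher (0.405%) and 22 lower. In AhR-null cells limma called 0 probes, and 4 with the block (0.018%). Without the block 425 had an unadjusted p under 0.05 (1.91%). That share is below the 0.05 that the threshold itself gives where no probe differs.

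**Figure D1:**
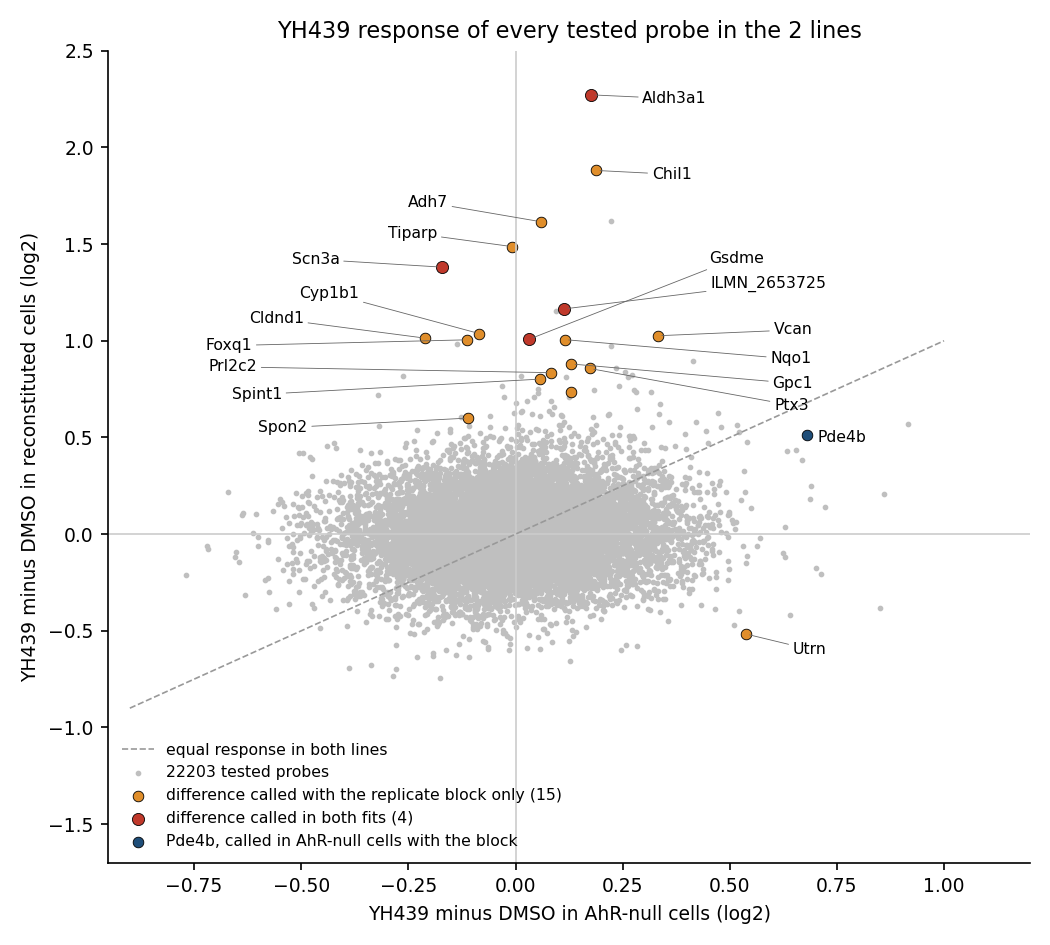
Log2 change with YH439 over DMSO in reconstituted cells (vertical axis) against that in AhR-null cells (horizontal axis) for the 22203 tested probes, which come from separate arrays. The 4 probes called in both fits and 14 of the 15 called only with the replicate block lie above the dashed line of equal response, and Utrn lies below it.

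The 2 lines' responses come from arrays that are not shared, so the AhR-null values of probes picked in reconstituted cells are a separate measurement. The 90 probes that were higher with YH439 in reconstituted cells with the block had a median change of 0.63 there (log2) and 0.105 in AhR-null cells. Of these 90, 74 were above 0 in AhR-null cells, against 49.6% of all tested probes. Some genes, such as Vcan, Neurl3 and Tsc22d3, have several probes among the 90. All AhR-null changes also share the same arrays, so the probes are not independent. The 22 lower probes had a median of -0.50 in reconstituted cells and -0.09 in AhR-null cells, where 5 of them were above 0. With the block, the difference between the lines was itself called for 18 of the 90 and for 0 of the 22. Over all tested probes, 0.0856% were called. The reconstituted change that picked these probes is part of that difference, so these counts are no separate measurement.

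Aldh3a1 encodes an aldehyde dehydrogenase that oxidises aromatic and medium-chain aldehydes and is a classic member of the AhR battery. Its normalised log2 signal was 11.64, 11.77 and 11.69 in reconstituted cells with YH439, against 9.43, 9.47 and 9.39 in reconstituted cells with DMSO. In AhR-null cells it was 9.28, 9.32 and 9.73 with YH439, against 9.11, 9.30 and 9.39 with DMSO. Only the reconstituted cells with YH439 stood apart, and the other 9 arrays lay together. Signal was 4.83-fold higher with YH439 in reconstituted cells, and the AhR-null change was 0.18 on the log2 scale (95% interval -0.13 to 0.48). The responses differed by 2.10 ± 0.20 (SE, n = 3 arrays per group, 95% interval 1.67 to 2.53, limma adjusted p = 5.09e-04, with the block 2.27e-05). This gene passed the threshold in all 42 fits run with other settings, where the difference ranged over 2.015 to 2.287.

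Gsdme encodes a gasdermin, a protein that forms membrane pores after cleavage by an executioner caspase. It had log2 signals of 9.98, 9.84 and 9.86 in reconstituted cells with YH439, against 8.81, 8.88 and 8.96 in reconstituted cells with DMSO. The AhR-null values were 8.74, 8.81 and 8.94 with YH439, against 8.77, 8.79 and 8.84 with DMSO. The reconstituted YH439 arrays were again the ones apart, by about 1 log2 unit. The responses differed by 0.98 ± 0.14 (95% interval 0.67 to 1.28, adjusted p = 0.0254, with the block 0.00571). Leaving out 1 array ended the call in 11 of 12 cases without the block and in 0 of 12 with it. Among the 9 tested genes on a list of gasdermins and caspases, Gsdme was the 1 called. Of 11149 genes by their brightest probe, 0.0269% were called without the block and 0.135% with it. This list and those below were compiled with results of these data known, so their counts of called genes are a description. The brightest probe of Gsdmd, a related pore former, had a difference of 0.55 (adjusted p with the block 0.297). The other 2 Gsdmd probes gave 0.14 each.

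The probe ILMN_2653725 had log2 signals of 10.14, 10.19 and 10.35 in reconstituted cells with YH439, against 9.08, 8.99 and 9.11 in reconstituted cells with DMSO. In AhR-null cells they were 9.24, 9.20 and 9.22 with YH439, against 9.19, 9.19 and 8.94 with DMSO. The AhR-null YH439 arrays lay just above their DMSO arrays, and the 3 reconstituted YH439 arrays did not overlap the other 9. The difference of 1.05 ± 0.14 was called without and with the block (adjusted p = 0.0167 and 0.00479). Leaving out 1 array ended the call in 10 of 12 cases without the block and in 0 of 12 with it, while with the block its adjusted p was 0.0505 without the 6 dimmest arrays and 0.129 with the 12 arrays alone.

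Scn3a encodes a pore-forming alpha subunit of a voltage-gated sodium channel, known mainly from neurons. On the log2 scale its signal was 6.60, 6.39 and 6.58 in reconstituted cells with YH439, against 4.76, 5.16 and 5.51 in reconstituted cells with DMSO. AhR-null cells had 4.43, 4.47 and 4.62 with YH439, against 4.57, 4.78 and 4.68 with DMSO, and the probe was not well above background on any of these 6 arrays. It was detected on 3 reconstituted arrays with YH439 and on 2 with DMSO. The level in reconstituted YH439 cells was at least 2.81-fold that in AhR-null YH439 cells, a bound set by the lowest signal of detected probes. The fitted difference of 1.55 ± 0.21 was called in both fits (adjusted p = 0.0167, with the block 0.0128) and rests on values near background in 3 of the groups. Leaving out 1 array ended the call in 9 of 12 cases without the block and 5 of 12 with it. Of 14 listed sodium channel genes, 4 were tested, and the other 3 had differences of -0.05 (Scn2b), 0.25 (Scn4b) and 0.52 (Scn10a), none called.

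**Figure D2:**
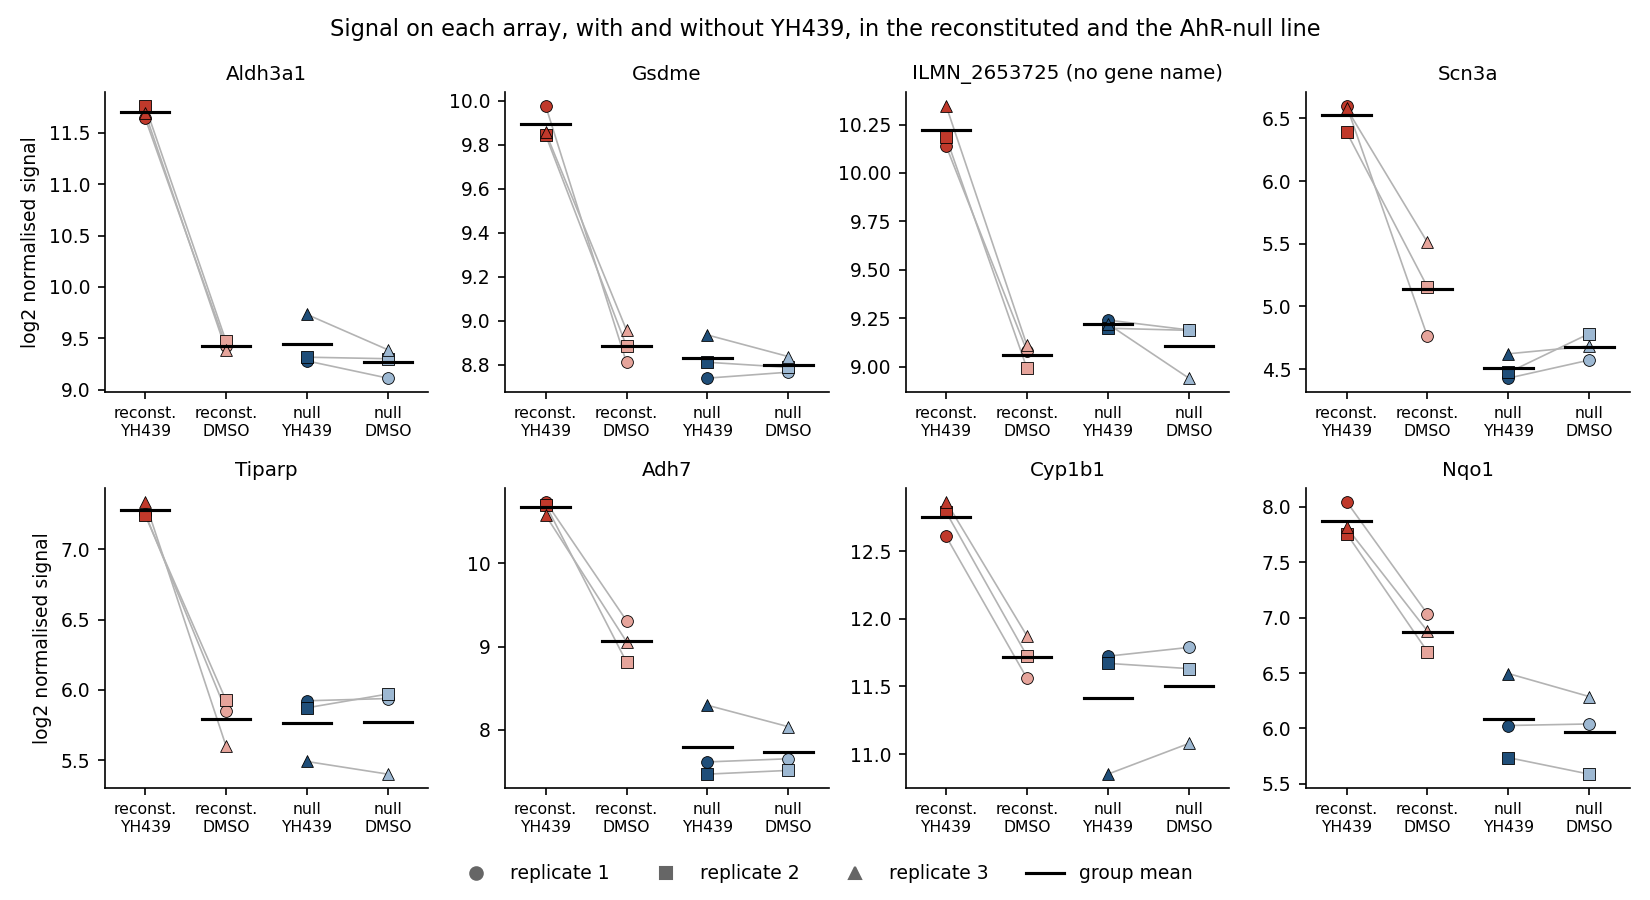
Normalised log2 signal of 8 probes on each of the 12 arrays (points, shaped by replicate number), with group means as black bars and lines joining same-numbered arrays of a line. In each panel the 3 reconstituted YH439 arrays lie above all 3 reconstituted DMSO arrays, while the AhR-null YH439 and DMSO arrays overlap in every panel except that of ILMN_2653725. Axes do not start at 0.

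Tiparp encodes a mono-ADP-ribosyltransferase that AhR induces and that in turn inhibits AhR. Its log2 signal was 7.25, 7.24 and 7.34 in reconstituted cells with YH439, against 5.85, 5.93 and 5.60 in reconstituted cells with DMSO. In AhR-null cells it was 5.92, 5.87 and 5.49 with YH439, against 5.94, 5.97 and 5.40 with DMSO. The 2 groups of AhR-null arrays overlapped, and replicate 3 was low in both. The responses differed by 1.49 ± 0.27, which passed with the block (adjusted p = 0.00731) and not without it (0.227). Among 17 tested genes of the PARP family, Tiparp was the 1 called with the block, against 0.135% of all genes. The other 16 differences lay between -0.30 (Parp14) and 0.22 (Parp10). The PARP list too was compiled with results of these data known, so its count is a description.

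Cyp1b1 encodes a cytochrome P450 that metabolises polycyclic aromatic hydrocarbons and oestradiol. Normalised log2 signal was 12.61, 12.79 and 12.87 in reconstituted cells with YH439, against 11.56, 11.73 and 11.87 in reconstituted cells with DMSO. In AhR-null cells it was 11.72, 11.67 and 10.85 with YH439, against 11.79, 11.63 and 11.08 with DMSO. The probe was bright in all 4 groups, and replicate 3 of the AhR-null line was again low under both treatments. The difference was 1.12 (95% interval 0.31 to 1.93, adjusted p = 1), and pairing the arrays narrowed the interval to 0.86 to 1.38 (adjusted p with the block 0.00479).

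Nqo1, which encodes a quinone reductase under the control of both AhR and NRF2, had log2 signals of 8.05, 7.76 and 7.82 in reconstituted cells with YH439, against 7.03, 6.69 and 6.88 in reconstituted cells with DMSO. In AhR-null cells they were 6.03, 5.74 and 6.50 with YH439, against 6.04, 5.59 and 6.29 with DMSO. Both reconstituted groups lay above both AhR-null groups. The difference of 0.89 ± 0.28 was called with the block (adjusted p = 0.0147) and not without it (adjusted p = 1).

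The remaining canonical genes gave little or no measurement. The probes of Cyp1a1 and Cyp1a2, the best-known AhR targets, were detected on 0 of 18 arrays and were not tested. Ahr itself was detected on 1 of 18 arrays (background-subtracted intensity from -9.52 to 21.8), so its probe does not check the reconstitution. Ahrr, the AhR repressor, was detected on the 3 reconstituted YH439 arrays and on 0 of the other 9 used here. Its intensity was -3.94 to 23.9 over the study. Those 3 arrays brought the probe just inside the filter, so its pattern of detection is no separate evidence. By a bound on group means, which has no error estimate, its signal in reconstituted cells with YH439 was at least 1.11-fold that with DMSO. The fitted change there was 0.25 on the log2 scale and was not called (limma adjusted p with the block 0.677). Its fitted difference between the lines was 0.12 (95% interval -0.33 to 0.56). Arnt, the DNA-binding partner of AhR, had a difference of -0.08 (95% interval -0.35 to 0.19) by its brightest probe, and its 6 probes ranged over -0.20 to 0.21. With scaling on the array median the brightest Arnt probe gave 0.11 instead. Nfe2l2, which encodes NRF2, had a difference of 0.38 (95% interval 0.10 to 0.65, adjusted p = 1, with the block 0.392).

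Taken as a list, the AhR battery had 19 of its 20 genes on the array and 17 tested. Under the block 4 of the 17 were called larger in reconstituted cells, against 0.135% of 11149 genes by their brightest probe, and 1 without the block, against 0.0269%. The difference was above 0 for 15 of the 17, against 48.5% of genes, with a median of 0.40 over the list and -0.01 over all genes. For 11 of the 17 all 3 same-numbered changes of the reconstituted line exceeded all 3 of the AhR-null line, which held for 6.41% of genes. The 2 members below 0 were Stc2, a secreted glycoprotein (-0.15), and Hes1, a transcriptional repressor (-0.08). Members above 0 but not called included Cyp2s1, a further P450 (0.88, adjusted p with the block 0.391), Ugt1a7c, a glucuronosyltransferase (0.68, 0.276), and Serpinb2, a protease inhibitor (0.58, 0.622). Stc2 below 0, and Ahrr, Ptgs2 and Cyp2s1 above 0, had signal near background. They were detected on at most 2, 3, 5 and 7 of the 12 arrays, in that order. Xdh, which encodes xanthine oxidoreductase, was higher with YH439 in reconstituted cells with the block by 0.65 (adjusted p = 0.00195), and its difference between the lines was 0.37 (adjusted p = 0.468). The list was compiled with results of these data known, so its counts are a description.

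**Figure D3:**
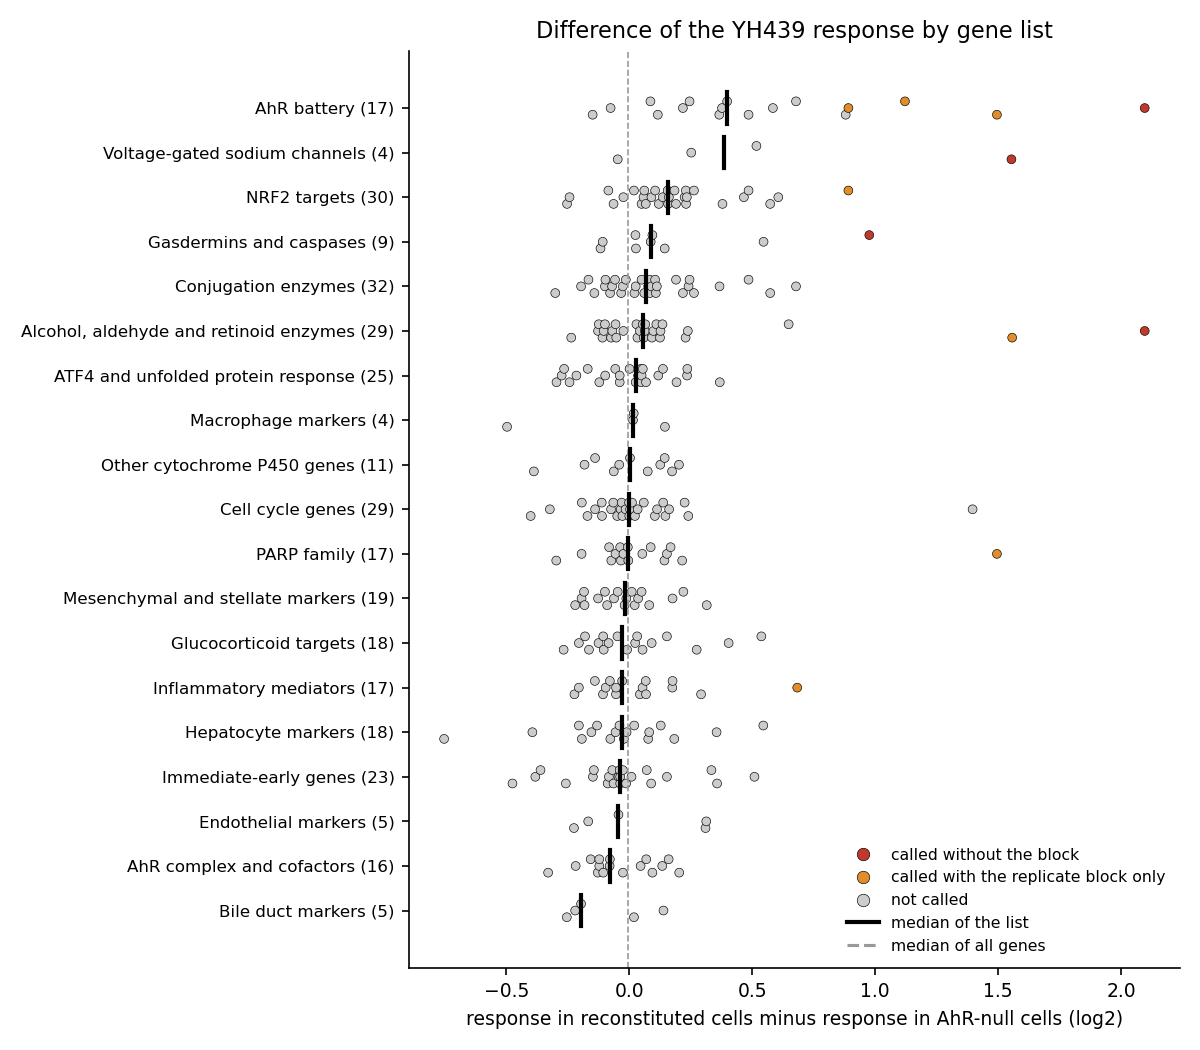
Difference of the YH439 response, reconstituted minus AhR-null (log2, horizontal axis), for the brightest probe of each tested gene in 19 lists, with the number of tested genes in brackets and list medians as black bars. The AhR battery has a median of 0.40 and 4 called members, while most other lists are centred near the median of all genes. Exceptions are the 4 tested sodium channel genes, with a median of 0.38, and the 5 bile duct markers, with one of -0.20. Of these genes 0 and 2, in that order, were detected on all 12 arrays. With the authors' processed values the 2 medians were 0.21 and 0.04, against 0.02 over all genes.

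Adh7 encodes an alcohol dehydrogenase that oxidises retinol. Normalised log2 signal was 10.74, 10.71 and 10.58 in reconstituted cells with YH439, against 9.31, 8.81 and 9.06 in reconstituted cells with DMSO. In AhR-null cells it was 7.61, 7.46 and 8.29 with YH439, against 7.65, 7.51 and 8.04 with DMSO. The reconstituted arrays with DMSO already lay above every AhR-null array, by a mean of 1.33 over AhR-null DMSO (adjusted p = 0.0205), a comparison that uses the same DMSO arrays. The responses differed by 1.56 ± 0.34 (95% interval 0.84 to 2.27), called with the block (adjusted p = 0.00406) and not without it (0.599). Among fits without the block, it was called with median scaling (adjusted p = 0.00375), without the 6 dimmest arrays (0.00937) and with array weights (1.62e-04). Of 42 fits with other settings 20 called it, and 17 of these were among the 19 with the block. Another Adh7 probe, detected on 2 of the 12 arrays, gave 0.49. Of 29 tested genes for alcohol, aldehyde and retinoid enzymes and receptors, 2 were called with the block, Adh7 and Aldh3a1, against 0.135% of all genes. The median of the list was 0.055. The other members ranged over -0.24 (Crabp2) to 0.65 (Crabp1), which encode retinoic acid binding proteins. As with the other lists, results of these data were known when it was compiled, so its count is a description.

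NRF2 targets, the antioxidant genes that overlap the AhR battery, had 30 of 33 genes tested. Nqo1 was the 1 called, with the block, against 0.135% of all genes. The difference was above 0 for 25 of 30 and its median was 0.16. The same-numbered changes were all larger in reconstituted cells for 12 of the 30, against 6.41% of all genes. Gclc, the catalytic subunit of the enzyme that starts glutathione synthesis, had a difference of 0.61, and Gclm, its modifier subunit, 0.47 (adjusted p with the block 0.373 and 0.373). Gsta2 and Gsta1, glutathione transferases whose near-identical sequences may share signal, gave 0.57 and 0.485. Hmox1, haem oxygenase, gave 0.23, and the largest negative values were -0.25 for Abcc1, an export pump, and -0.24 for Slc7a11, the cystine transporter. None of these 7 passed.

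The other genes called with the block follow, those for secreted and surface proteins first. Chil1 encodes a secreted chitinase-like lectin. Its log2 signal was 7.33, 7.13 and 7.28 in reconstituted cells with YH439, against 5.77, 5.36 and 4.98 in reconstituted cells with DMSO, and 5.42, 5.15 and 5.42 in AhR-null cells with YH439, against 4.81, 5.00 and 5.61 with DMSO. The reconstituted YH439 arrays were the 3 highest, and in the other groups the probe was detected on 2, 3 and 1 of 3 arrays in that order. The difference was 1.69 ± 0.31 (adjusted p with the block 0.0148, without it 0.227).

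Gpc1, a heparan sulphate proteoglycan of the cell surface, had log2 signals of 12.66, 12.67 and 12.61 in reconstituted cells with YH439, against 11.86, 11.72 and 11.72 with DMSO. In AhR-null cells they were 11.36, 11.36 and 11.76 with YH439, against 11.22, 11.29 and 11.58 with DMSO. Signal was higher with YH439 in every same-numbered pair of both lines, and by 0.75 more in reconstituted cells (adjusted p with the block 0.016). Vcan, the matrix proteoglycan versican, had 5 probes with differences of 0.48 to 1.06, 1 of them called (0.69, adjusted p with the block 0.0373). Its called probe rose by 1.03 in reconstituted cells (adjusted p = 0.00288) and its AhR-null change was 0.33 (95% interval 0.05 to 0.62, adjusted p with the block 0.428). Ptx3, a secreted pentraxin of innate immunity, was measured by 2 probes. By the brighter one its log2 signal was 12.86, 12.70 and 12.79 in reconstituted cells with YH439, against 12, 11.89 and 11.88 with DMSO, and 12.44, 12.45 and 12.17 in AhR-null cells with YH439, against 12.16, 12.22 and 12.16 with DMSO. The DMSO arrays of the AhR-null line lay above those of the reconstituted line, and the 2 probes gave differences of 0.68 and 0.60 (adjusted p with the block 0.0346 and 0.041). Ptx3 was the 1 gene called with the block among 17 tested inflammatory mediators, against 0.135% of all genes. The median of that list was -0.03, and Il6, Ccl2 and Cxcl1 had differences of -0.22, -0.05 and -0.05.

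Spon2, a secreted matrix protein, had a difference of 0.71, and Spint1, a membrane inhibitor of serine proteases that activate hepatocyte growth factor, one of 0.74 (adjusted p with the block 0.041 each). Cldnd1, which encodes a membrane protein with a claudin domain, had log2 signals of 9.82, 9.78 and 10.11 in reconstituted cells with YH439, against 8.83, 8.74 and 9.10 with DMSO. In AhR-null cells they were 8.96, 8.99 and 8.30 with YH439, against 8.98, 9.05 and 8.84 with DMSO. The AhR-null values spread mainly through replicate 3 with YH439, and the difference was 1.23 (adjusted p with the block 0.0202). Foxq1, a forkhead transcription factor, had log2 signals of 8.30, 8.12 and 8.27 in reconstituted cells with YH439, against 7.09, 7.28 and 7.30 with DMSO. In AhR-null cells they were 6.00, 6.00 and 6.47 with YH439, against 6.20, 5.98 and 6.63 with DMSO. The 3 reconstituted YH439 arrays were the highest, and the difference was 1.12 (adjusted p with the block 0.041). Prl2c2, a proliferin of the prolactin family, had a difference of 0.75 (0.041) and 0.69 by its other probe (0.0806). Its paralogs are nearly identical, so the probes may read several of them. Without the block the adjusted p of Chil1, Gpc1, Vcan, Ptx3, Spon2, Spint1, Cldnd1, Foxq1 and Prl2c2 ran from 0.227 to 1. With the block, the calls of Ptx3, Vcan, Spint1, Foxq1 and Spon2 ended whichever 1 of the 12 arrays was left out, and those of Nqo1, Chil1, Gpc1, Cldnd1, Prl2c2 and Utrn held in 2, 5, 3, 2, 1 and 1 of the 12 cases.

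Utrn was the 1 probe called in the opposite direction. The gene encodes utrophin, a cytoskeletal protein related to dystrophin. On the log2 scale its signal was 5.07, 4.91 and 4.78 in reconstituted cells with YH439, against 5.83, 5.32 and 5.15 with DMSO. In AhR-null cells it was 5.62, 5.32 and 5.63 with YH439, against 5.21, 4.76 and 4.98 with DMSO. All values were near background, and the probe was detected on 1, 3, 3 and 1 of 3 arrays in that order. The difference was -1.05 ± 0.24 (adjusted p with the block 0.0346, without it 0.673), while the other 2 Utrn probes gave 0.04 and 0.23. By p-value without the block, the next genes below 0 were Fbxw7, a ubiquitin ligase subunit (-0.92), Hopx, a homeodomain cofactor (-0.56), Rcan2, a calcineurin regulator (-0.63), Hnf4a, a hepatocyte transcription factor (-0.75), and Diras2, a small GTPase (-0.66). Their adjusted p with the block lay between 0.197 and 0.392. The Fbxw7 and Hnf4a probes were not detected on any AhR-null DMSO array. For both, mean AhR-null signal with YH439 was at least 1.09-fold that with DMSO, a bound with no error estimate. Their fitted differences thus rest on values near background.

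**Figure D4:**
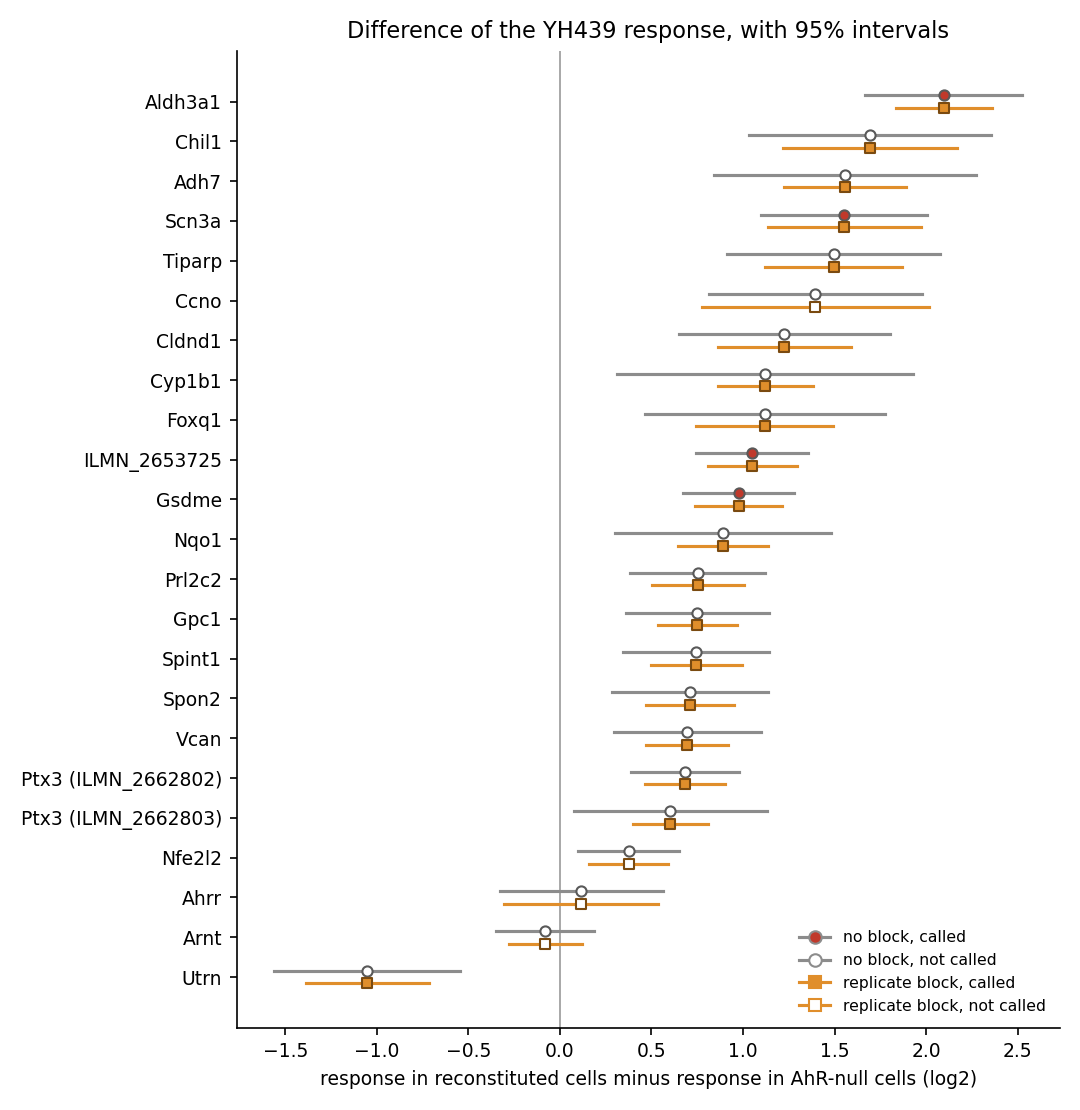
Difference of the YH439 response, reconstituted minus AhR-null (log2, horizontal axis), with its 95% interval, without the block (grey, circles) and with it (orange, squares). Shown are each probe called with the block, the tested members of a panel of AhR genes, and Ccno. Filled symbols passed an adjusted p of 0.05. Intervals with the block are narrower for most probes, such as 0.86 to 1.38 against 0.31 to 1.93 for Cyp1b1.

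In AhR-null cells, the 4 probes called with the block were other genes. Pde4b, a cyclic AMP phosphodiesterase, had log2 signals of 8.28, 8.17 and 8.50 with YH439, against 7.58, 7.55 and 7.77 with DMSO. In reconstituted cells it had 8.37, 8.06 and 8.05 with YH439, against 7.83, 7.46 and 7.67 with DMSO. YH439 arrays exceeded DMSO arrays in both lines, by 0.51 in reconstituted cells (adjusted p with the block 0.00503) and by 0.68 in AhR-null cells (0.00977). The difference between the lines was -0.17 (95% interval -0.59 to 0.25), so it was not detectable at this spread. Osr1, a zinc finger transcription factor, Huwe1, a ubiquitin ligase, and Tbc1d9b, a protein with a Rab GTPase-activating domain, were lower with YH439 in AhR-null cells by the block fit (-0.63, -0.65 and -0.72, adjusted p = 0.0417 each). Their changes in reconstituted cells were -0.32, -0.09 and -0.06. Other probes of Huwe1 and Tbc1d9b gave AhR-null changes of 0.01 and -0.03. The called Tbc1d9b probe was not detected on any AhR-null array with YH439. Its AhR-null signal with DMSO was at least 1.58-fold that with YH439, a bound.

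In the further lists of metabolic, receptor and stress genes, no difference between the lines was called. Over all genes 0.135% were called with the block and 0.0269% without it. A count of 0 in lists of this size therefore says little. Conjugation enzymes had 32 genes tested, a list of cytochrome P450 genes outside the battery 11, and AhR complex and cofactor genes 16. In these lists 0 were called in either fit, and the medians were 0.07, 0.00 and -0.08. The 11 include Cyb5a and Cyb5r3, which are not P450 genes. Glucocorticoid targets, which matter because dexamethasone was in all media, had 18 tested, 0 called and a median of -0.03. Their median change with YH439 was 0.18 in reconstituted cells and 0.16 in AhR-null cells, and with the block 3 of the 18 were called higher in reconstituted cells, against 0.493% of all genes, and 0 were called in AhR-null cells. Tsc22d3, a glucocorticoid-induced leucine zipper protein, had differences of 0.54, 0.46 and 0.55 by its 3 probes (adjusted p with the block 0.392, 0.351 and 0.279). In the lists of immediate-early, ATF4 and unfolded protein response, and cell cycle genes, 0 of 23, 25 and 29 tested genes were called. Ccno, an atypical cyclin, was the largest of the last list at 1.40 (adjusted p = 0.37, with the block 0.19).

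Markers of the labelled cell type were partly absent. Among 30 hepatocyte markers probed, 9 were detected in every one of the 12 samples and 11 in 0, with probes of Alb, Apoa1 and Ttr below the filter. For mesenchymal and stellate cells, 19 of 20 markers were detected throughout. In the lists of hepatocyte, mesenchymal, bile duct, macrophage and endothelial markers, 0 of 18, 19, 5, 4 and 5 tested genes had a called difference. Over all genes the share with the block was 0.135%, so 0 in these short lists says little. The medians ran between -0.20 and 0.02.

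The spread sets what could be seen. The median standard error of the difference was 0.248, and 0.149 with the block, which gives 95% half-widths of 0.527 and 0.325. The 95% interval lay within 1 log2 unit of 0 for 84.4% of probes, and for 96.7% with the block. A difference of at least 1 in size was measured for 17 probes, 14 above and 3 below 0, and 10 of them were called with the block. Between 42% and 44.6% of probes were detected per array, and the median intensity ran from 6.03 to 11.9. The 6 dimmest arrays were replicate 1 of the reconstituted line and replicate 3 of the AhR-null line under every treatment, and replicate 3 is where the AhR-null values of Tiparp, Cyp1b1 and Adh7 stand apart. Without these 6 arrays and with the block, the differences of Gsdme, Scn3a, Tiparp, Cyp1b1 and Adh7 were 0.93, 1.38, 1.58, 1.04 and 1.75, with adjusted p between 0.0505 and 0.294. Without these arrays and without the block, Adh7 was called (adjusted p = 0.00937), and the others had adjusted p between 0.0968 and 0.265.

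The arrays of suspended cells allow the same difference to be read against the same DMSO arrays, so the 2 sets of values are not independent and are given side by side. For Aldh3a1 the difference was 2.10 with YH439 and 1.40 in suspension (adjusted p = 0.0506). For ILMN_2653725 it was 1.05 and 0.90 (0.061), and for Cyp1b1 1.12 and 1.52 (1, with the block 7.68e-04). For Gsdme it was 0.98 and 0.64, for Tiparp 1.49 and 0.47, for Adh7 1.56 and 0.75, and for Chil1 1.69 and -0.04. The differences between these pairs were not tested.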

How the data were processed

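RNA of 18 cell samples was measured on Illumina mouse BeadChips, of which the 12 arrays of 4 groups entered the comparison. The deposited table holds, per the file headers, non-normalized bead intensity and a detection p-value for each probe on each array; values are background-subtracted, since some lie below 0. BeadStudio read the arrays, per the submitters' processing notes (version not given in the sources used here). Intensity is also what the authors' deposited series matrix holds, with a floor of 20 and a median of 20 in every column. It is linear, not centred by gene and runs with the signal (rank correlation with its own array at least 0.99896), while its scaling between arrays stays unknown. It served as an alternative.

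From the deposited intensity, limma 3.58.1 in R 4.3.3 computed log2 values with neqc (normexp background from the detection p-values, offset 16, quantile normalization), a scale on which changes of dim probes are understated. Probes with detection p under 0.05 on 3 of 18 arrays were kept. Of the 22203 kept, 18673 had 1 gene symbol and 3530 had several or none, and the symbols came from the platform annotation. Entrez identifiers of 34807 probes were found in a RefSeq table (GRCm38.p6), which changed 0 symbols.

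Group means were estimated from all 18 arrays by lmFit and eBayes, with two-sided tests and Benjamini-Hochberg adjustment over all kept probes. The steps were tested on simulated data. The number of arrays limits the precision. Same-numbered YH439 and DMSO arrays deviated together from their group means (r = 0.504, 0.314 and 0.444 in the reconstituted line, 0.594, 0.652 and 0.834 in the AhR-null line), so a fit with each line and replicate number as a block is given beside the first. In the AhR-null line replicates 1 and 2 also correlated across numbers (0.578 and 0.649), and across lines the correlations of same-numbered arrays ran from -0.558 to 0.0769. The labels do not say what a replicate number shares.

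Named were a panel of 10 AhR genes, every gene called in either fit, the 6 genes above and 6 below 0 with the smallest p, up to 4 members of each list and the 4 genes with the smallest p in AhR-null cells. Further list members, Osr1, Gclc and other genes given as examples were chosen after their values were seen. A list gene is represented by its brightest kept probe. The members, rules and lists were chosen with earlier results of these data known. A probe detected on 0 arrays of a group has only a bound there, in which each dim array counts at its own signal or at that of its dimmest detected probe, whichever is higher. Such a bound compares group means, has no error estimate and was kept only where the detected group lay above it. Alternatives were the block, background correction, scaling, the authors' processed values, the filter, 1 probe per gene, the arrays fitted, array weights and leaving out each array. The fits that combine the block with another choice were added after seeing the data.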

Additional observations from a re-analysis of the deposited data

Results flagged for a closer look

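The YH439 response differed between reconstituted and AhR-null cells, by the limma test of the difference itself, for 4 probes. The log2 difference was 2.10 for Aldh3a1, 1.05 for ILMN_2653725, 1.55 for Scn3a and 0.98 for Gsdme, larger in reconstituted cells each time. The Scn3a probe was not well above background on any AhR-null array, and ILMN_2653725 has no gene name in the annotation.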

How the results depend on the processing

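Of the difference between the lines, 4 probes were called, and the replicate block called 19, array weights 23, the 12 arrays alone 1, and fits without 1 array between 1 and 4. Of YH439 in reconstituted cells, 19 were called, against 112 with the replicate block, 10 with median scaling, 44 with the authors' processed values, 12 with the 12 arrays alone, 31 without the 6 dimmest arrays, 105 with array weights and 9 to 25 without 1 array. In AhR-null cells 0 were called, against 4 with the replicate block, 1 with no filter on dim probes, 49 with array weights and 0 without any 1 array. The 19 calls of the block fit became 1 without the 6 dimmest arrays, 1 with the 12 arrays alone and 5, 6, 7, 8, 9, 10 or 11 without 1 array. With the authors' processed values the block fit called 14, 11 of them shared. The 2 fits with 12 arrays have fewer arrays, and the causes of the other changes were not tested. With median scaling the median difference of all probes was 0.146, against -0.0023 in the first fit, and relative to all genes the AhR battery kept a higher median under every scaling (0.374 to 0.446). The chip as a block was not run, since no header gives one. Aldh3a1 was called under every setting. Gsdme, Scn3a and ILMN_2653725 were lost with median scaling (adjusted p = 0.998, 0.131 and 0.998) and with the 12 arrays alone (0.163, 0.179 and 0.163), Gsdme and Scn3a without the dimmest arrays (0.0968 and 0.13), and ILMN_2653725 with the authors' processed values (0.0575). No result turned its called direction. Signal near background limits the values of Scn3a, Ahrr, Utrn, Chil1, Fbxw7, Hnf4a, Tbc1d9b, Stc2, Ptgs2 and Cyp2s1.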

Other observations

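Ccno, which encodes an atypical cyclin, was 3.07-fold higher with YH439 than with DMSO in reconstituted cells (adjusted p = 0.00122), with log2 signals of 7.41, 7.10 and 7.16 with YH439, against 5.63, 5.43 and 5.75 with DMSO. In AhR-null cells it had 5.57, 4.95 and 5.35 with YH439, against 5.12, 5.28 and 4.81 with DMSO, and the difference between the lines did not pass in either fit (1.40, adjusted p = 0.37, with the block 0.19). Anpep, which encodes a membrane aminopeptidase and was picked after its values were seen, was higher by 0.99 in reconstituted cells with the block (adjusted p = 0.0156), and its difference between the lines was 1.12 (adjusted p with the block 0.173).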
